A study of Gallus gallus with 6 samples.

Results

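Long noncoding RNAs (lncRNAs) that lie between genes were described here together with the changing mRNA nearest to each in chicken liver. The deposited lncRNA table lists 622 lncRNAs, of which 561 carry class code u, the assembly code for a transcript that overlaps no annotated gene. Of these intergenic lncRNAs, 186 had a region within 100000 bp of a region in the mRNA table on the same chromosome, and 375 did not. The gap was counted between the ends of the regions and was 0 where they overlapped. Each of the 186 was paired with its nearest listed mRNA, which gave 118 different mRNAs of the 1480 listed. An mRNA symbol was given for 105 of these 118 and an identifier alone for 13. The directions of the lncRNA and the mRNA in each pair were then compared.

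The livers came from Arbor Acres breeder roosters, killed after feed withdrawal, in 2 groups of 3 libraries. Each immature library held pooled RNA from 4 livers of chicks aged 1 day, so the spread among chicks is averaged within it, and each mature library held the liver of 1 rooster aged 40 weeks. Strand-specific libraries were made after removal of ribosomal RNA. For every transcript the tables give 1 value per group in FPKM (fragments scaled to transcript length and to library size), printed below as the authors' group value. These tables hold no value per library, so no spread between replicates could be computed from them and no difference below was tested. FPKM carry no counts, so the depth behind a single value is unknown here. The paper reports fewer mapped reads for each immature library than for any mature library. Whether this bears on the values below was not tested. Every transcript listed had been called changed by the authors before deposit, so each pair has 2 directions, and a transcript that is not listed has no value here. The paper's Results count fewer changed lncRNAs and more changed mRNAs than are listed here. Its Discussion gives the lncRNA counts listed here.

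Intergenic lncRNAs are transcribed by the same polymerase as mRNAs but encode no known protein, and most are present at lower levels than mRNAs. Some act on the chromatin or transcription of genes beside them, some act elsewhere in the cell, and for many no function is known. Neighbouring transcripts can also change together because they share a promoter, an enhancer or an open stretch of chromatin, so a shared direction does not show that one controls the other. In the liver after hatching, cell division slows, the source of energy moves from yolk lipid to feed, and immune cells settle. The gene roles given below are textbook background, known for the most part from mammals.

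Most pairs pointed in the same direction. In 135 of the 186 pairs (72.6%) the lncRNA and its nearest mRNA were both higher or both lower in mature livers. Both were higher in 79 pairs and both were lower in 56. The lncRNA was higher and the mRNA lower in 21 pairs, and the reverse held in 30. Of the 375 intergenic lncRNAs farther away, 193 (51.5%) had the direction of the nearest listed mRNA on the chromosome. No test of this difference was made, since pairs are not replicates and many share an mRNA. With 1 pair kept for each mRNA, that of the nearest lncRNA, the share was 70.3% of 118 pairs. This choice favours short gaps, where the share was higher.

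The share was lower at longer distances. In each distance class below, the upper limit belongs to the class. All 16 pairs with a shared region had 1 direction, as did 59 of 70 pairs (84.3%) with a gap of 1 to 5000 bp. Within 1000 bp it was 36 of 39 (92.3%). At 5000 to 20000 bp it was 19 of 24 (79.2%), at 20000 to 50000 bp 24 of 36 (66.7%), and at 50000 to 100000 bp 17 of 40 (42.5%), below the share of the lncRNAs beyond 100000 bp. With 1 pair kept for each mRNA, the share was 53 of 62 (85.5%) in a shared region or up to 5000 bp. In the longer classes it was then 10 of 13 (76.9%), 9 of 17 (52.9%) and 11 of 26 (42.3%). Pairs of neighbouring mRNAs gave a smaller gradient over the same distances. A listed mRNA and the nearest listed mRNA of another gene had the same direction in 37 of 43 pairs (86.0%) with a shared region, in 151 of 218 (69.3%) at 1 to 5000 bp, and in 119 of 206 (57.8%) at 50000 to 100000 bp. Beyond 100000 bp the share was 383 of 690 (55.5%). Each listed mRNA was taken in turn, so mRNAs nearest to each other were counted from both sides.

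**Figure D1:**
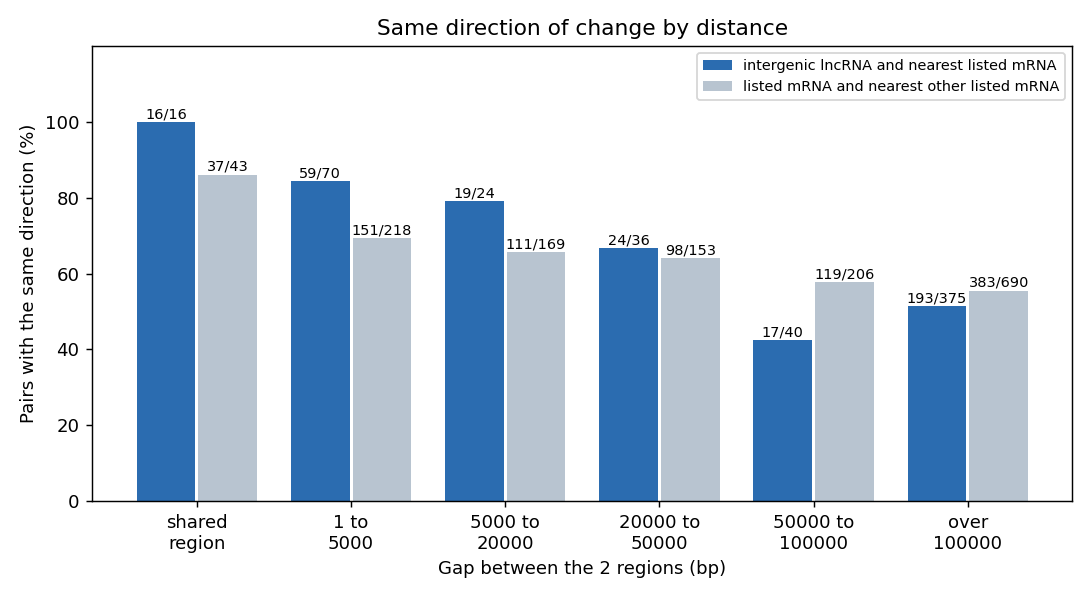
Share of pairs in which both transcripts had the same direction (y axis, percent) by the gap between their regions (x axis, bp). Dark bars are intergenic lncRNAs with their nearest listed mRNA, pale bars are listed mRNAs with the nearest listed mRNA of another gene, and the numbers above the bars are pairs with the same direction over all pairs. The dark bars run from 100% at a shared region to 42.5% at 50000 to 100000 bp, and the pale bars from 86.0% to 57.8%.

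The likeness of the 2 differences in a pair was also lower at longer distances. A difference here is the log2(FPKM + 1) of the mature group less that of the immature group, which makes changes of low transcripts look smaller than they are. Across the 16 pairs with a shared region Spearman's rho was 0.82, and across the 70 pairs at 1 to 5000 bp it was 0.59. It was 0.34 at 5000 to 20000 bp (n = 24), 0.08 at 20000 to 50000 bp (n = 36) and -0.21 at 50000 to 100000 bp (n = 40). These points share mRNAs, libraries and library scaling, and the coefficients are descriptions only. No lncRNA lay near 0 on this scale. Unchanged transcripts are not listed, though a listed one at a low enough level could still lie near 0.

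**Figure D2:**
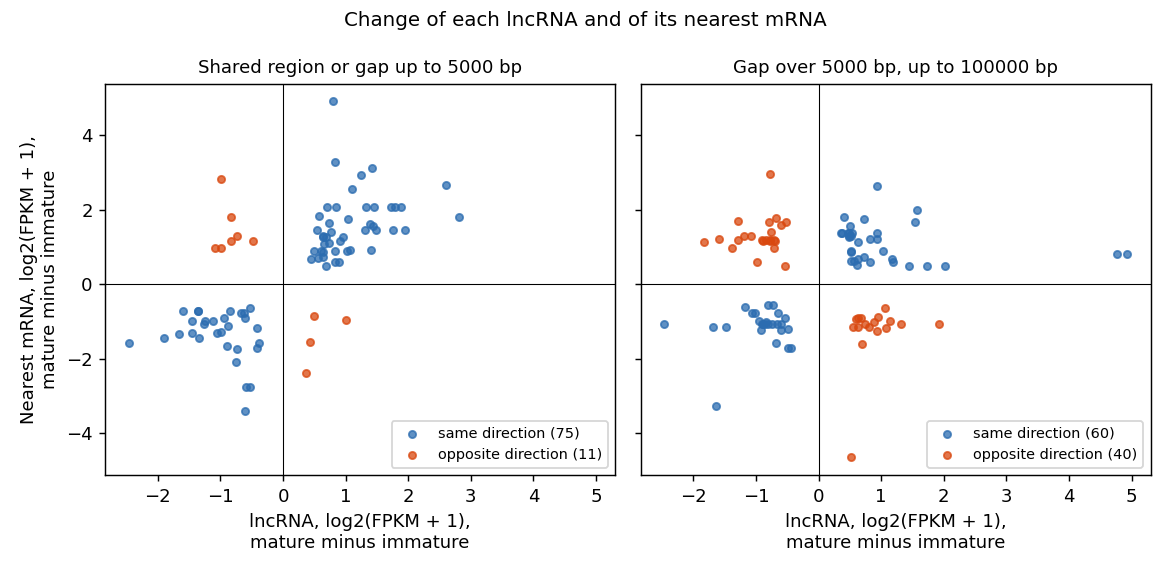
Difference of each lncRNA (x axis) against that of its nearest mRNA (y axis), both mature minus immature livers on log2(FPKM + 1), with a shared region or a gap up to 5000 bp on the left and longer gaps on the right. Each point is 1 pair, blue for the same direction and orange for opposite directions. On the left 75 of 86 pairs share a direction and on the right 60 of 100.

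The position columns set a limit on these distances. All 16 pairs with a gap of 0 had a region identical to that of the mRNA, under another gene identifier, and 46 of the 186 lncRNAs shared their region with another listed transcript. A region can therefore span several assembled genes, and the true distance between 2 transcripts can be longer than the gap. The median region of the 186 lncRNAs was 2906 bp wide, but some were far wider. At gaps up to 5000 bp these included lncRNAs beside NR3C2 (132737 bp), SLC6A6 (99736 bp) and PDLIM1 (187536 bp). For such pairs a short gap does not fix the distance. The tables give neither strand nor exons, so whether an lncRNA a few bp from an mRNA is a separate transcript or an extension of it was not tested. The smallest gap above 0 was 33 bp and the median gap was 6947 bp. Besides its nearest mRNA, a further listed mRNA lay within 100000 bp of 42 of the 186.

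The numbers in the gene identifiers gave a second grouping of the pairs. Along each chromosome the numbers rise with position in 2 successive runs, with 2 steps back among 2039, and the sources used here do not state what the runs stand for. Of the 109 pairs with both transcripts in the same run, 86 (78.9%) had the same direction, against 49 of 77 (63.6%) with the transcripts in different runs. Near the mRNA the runs differed little. At 1 to 5000 bp the shares were 35 of 41 in the same run and 24 of 29 in different runs. At 20000 to 50000 bp they were 21 of 24 and 3 of 12. These pairs held 14 and 10 different mRNAs, and 7 of the 21 lay beside HMGI-C alone, so groups around 1 mRNA weigh on these shares. At 5000 to 20000 bp the order was the other way, with 7 of 11 in the same run and 12 of 13 in different runs.

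By level the lncRNAs near changing mRNAs were low. Their median was 0.818 FPKM in the immature group and 0.845 FPKM in the mature group, against 4.33 and 5.51 FPKM for the 118 mRNAs beside them. Taking the higher group of each transcript, 150 of the 186 (80.6%) lay below their mRNA, and the median ratio of mRNA to lncRNA was 4.77. Under 1 FPKM in both groups were 60 of the 186, and 11 reached 10 FPKM in at least 1 group. A value of 0 was listed for 8 in immature livers and for 4 in mature livers. A mean of at least 1 FPKM over the 2 groups was reached by 74.

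More of the 186 were higher in mature livers than lower, 100 against 86, which is 53.8% higher against 44.3% of the 375 farther away. By more than 1 on log2(FPKM + 1), 36 (19.4%) were higher in mature livers, against 15.3% of all 622 listed lncRNAs. Lower by more than 1 were 28 (15.1%), against 13.8% of all lncRNAs. Among the 118 nearest mRNAs 48 (40.7%) were higher and 34 (28.8%) lower by more than 1, against 35.9% and 29.8% of the 1480 listed mRNAs. In either direction it was 65.7% of the listed mRNAs and 29.1% of the listed lncRNAs. Among the 375 intergenic lncRNAs farther away, 11.7% were higher and 12.0% lower by more than 1. None of these shares was tested against another. With no pseudocount, of the 174 among the 186 with no value of 0, 92 were higher and 82 lower by more than 1, which is all 174. The paper's criteria for a changed transcript already included a log2 fold change past 1 in either direction. Whether a listed transcript passes 1 here thus depends largely on its level, since the pseudocount of 1 shrinks changes of low transcripts. These shares are not rates of change among all transcripts. Under 1 FPKM in both groups were 192 of the 375, against 60 of the 186. The median difference was 0.47 for the 186 and -0.43 for the 375, each a median over a distribution with no values near 0. The median absolute differences were 0.83 and 0.73.

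By chromosome, 36 of the 186 lay on chromosome 1, 30 on chromosome 4, 19 on chromosome 2, 16 on chromosome 3, 13 on Z and 12 on chromosome 5. In the same order, these chromosomes held 104, 15, 55, 30, 13 and 41 intergenic lncRNAs farther from any listed mRNA. The counts are thus not shares of the lncRNAs on each chromosome. On Z 11 of 13 were higher in mature livers, as were 11 of 12 on chromosome 5, beside 53.8% of all 186. On chromosome 2, 13 of 19 were lower, beside 46.2% of all 186. Several of these counts come from a few groups of lncRNAs around 1 mRNA, described below.

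The 16 lncRNAs in a shared region belonged to 9 mRNAs. MCTP1, a membrane protein that binds calcium, held 6 of them in 1 region on chromosome Z (57356430 to 57625629). All 6 were higher in mature livers, from 0.232 to 1.38 FPKM in immature and from 1.02 to 7.21 FPKM in mature livers, with differences of 0.71 to 1.79. The MCTP1 mRNA was at 3.79 FPKM in the immature group and 19.2 FPKM in the mature group, a difference of 2.07.

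TCONS_00026740 shared the region of PTPN2 on chromosome 2 (96897046 to 96955365). PTPN2 is a tyrosine phosphatase that dampens cytokine signaling. The lncRNA was at 2.70 FPKM in the immature group and 21.5 FPKM in the mature group, and the mRNA was at 4.36 and 32.8 FPKM. Their differences, 2.60 and 2.66, were alike. TCONS_00040802, in the region of WTAP, a subunit of an RNA methyltransferase complex, was at 2.19 and 7.32 FPKM, and WTAP at 4.38 and 15.4 FPKM. TCONS_00064528 was listed at 0 in immature and 1.69 FPKM in mature livers beside the unnamed ENSGALG00000023879, at 2.36 and 28.4 FPKM.

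The other shared regions held lncRNAs that were lower in mature livers. SYBU, which links transport vesicles to a motor protein, was at 3.21 FPKM in the immature group and 0.556 FPKM in the mature group. Its TCONS_00031155 and TCONS_00031159 on chromosome 2 (131790286 to 131834245) were at 1.54 and 2.72 FPKM in immature livers and were both listed at 0 in mature livers. HAAO, a dioxygenase of tryptophan breakdown, was at 76.5 and 30.1 FPKM. In the region of HAAO on chromosome 3 (23440395 to 23494149), TCONS_00043253 was at 2.22 and 0.549 FPKM and TCONS_00043254 at 3.73 and 0.735 FPKM. The lncRNAs there thus stood far below the mRNA level, with differences of -1.06 and -1.45, beside -1.32 for HAAO.

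INHBA encodes the subunit shared by activin A and inhibin A, and its mRNA was at 8.70 FPKM in the immature group and 0.419 FPKM in the mature group. TCONS_00025939 in the INHBA region (chromosome 2, 51164747 to 51194030) was at 0.653 and 0.149 FPKM. TCONS_00025941, 102 bp from that region, was at 0.651 and 0.0931 FPKM, so both lncRNAs were lower with the mRNA. PPP2R2C, a regulatory subunit of a serine/threonine phosphatase, had the same arrangement on chromosome 4. TCONS_00050210 in its region was at 1.22 and 0.0202 FPKM, TCONS_00050211 at a gap of 403 bp was at 1.45 and 0.0351 FPKM, and the mRNA at 1.01 and 0.0230 FPKM. In immature livers both lncRNAs lay above the PPP2R2C mRNA.

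The 118 mRNAs were sorted by known role after their values had been seen, for description only. The counts of each role stand beside 72.6% of all 186 pairs. In a shared region or up to 5000 bp they stand beside 75 of 86 pairs (87.2%). Not set out as groups below are mitochondrial, folding and stress proteins, with the same direction in 3 of 6 pairs. The same holds for other or unassigned mRNAs, with 23 of 36. The 15 mRNAs of transcription, chromatin and RNA were nearest to 30 lncRNAs. Of these, 26 had the direction of their mRNA, 7 of them beside HMGI-C. All 13 within 5000 bp or in a shared region were among the 26. Not counted among the 15 was an mRNA with the symbol MMP11 but the description of a SWI/SNF chromatin subunit. It was at 18.0 FPKM in the immature group and 8.81 FPKM in the mature group. Its lncRNA TCONS_00020115, 579 bp away, went the opposite way, at 0 and 1.00 FPKM. ONECUT2 is a homeobox transcription factor of liver development. It was at 3.82 FPKM in the immature group and 19.3 FPKM in the mature group, and TCONS_00067120, 74 bp away on chromosome Z (399407 to 401642), was at 3.50 and 15.6 FPKM. The 2 transcripts stood at nearly the same level in both groups.

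Beside nuclear factor I/A (listed as cNFI-A4, 3.90 and 8.32 FPKM) lay a pair of lncRNAs on chromosome 8. TCONS_00061287 at 115 bp was at 6.46 and 14.7 FPKM, and TCONS_00061288 at 1527 bp was at 5.0 and 15.0 FPKM, both above the mRNA. NR3C2, the mineralocorticoid receptor, was at 1.48 and 7.89 FPKM, and TCONS_00049008 at 145 bp was at 0.111 and 0.653 FPKM. TRPS1, a zinc finger repressor, was at 0.248 and 0.739 FPKM. TCONS_00031163, 57 bp from TRPS1, was at 0.401 and 1.25 FPKM. Each of these lncRNAs and mRNAs was higher in mature livers.

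Of the same role, DNMT3A, BCOR and HMGB2 were lower in mature livers, and so were the lncRNAs nearest to them. DNMT3A, which places new DNA methylation, was at 11.9 FPKM in the immature group and 3.29 FPKM in the mature group. TCONS_00045141, 3738 bp away on chromosome 3 (104234674 to 104235043), was at 8.64 and 0.754 FPKM, a difference of -2.46 beside -1.59 for DNMT3A. The corepressor BCOR was at 2.07 and 0.813 FPKM. Its 3 lncRNAs, at gaps of 1237 to 22649 bp, lay at 1.02 to 1.47 FPKM in immature and 0.282 to 0.556 FPKM in mature livers. HMGB2, a DNA-bending protein abundant in dividing cells, was at 9.31 and 2.45 FPKM, and its lncRNAs TCONS_00046785 and TCONS_00049238 were lower by 0.39 and 0.67 on the log2 scale.

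HMGI-C (HMGA2), an architectural chromatin protein of embryonic tissue, was nearest to 8 lncRNAs. The HMGI-C mRNA was at 1.66 FPKM in the immature group and 0.262 FPKM in the mature group. Of its lncRNAs, 7 lay to the right at gaps of 40680 to 44122 bp, 6 of them in 1 region on chromosome 1 (34230718 to 34272046), and all 7 were lower in mature livers. TCONS_00000887 among them was at 6.49 and 0.352 FPKM, a difference of -2.47, while the other 6 were at 0.722 to 1.16 FPKM in immature livers. On the left, 39151 bp away, TCONS_00006308 was at 0.332 and 1.24 FPKM, the opposite direction. MLXIP, a partner of MLX in glucose-responsive transcription, was the other mRNA whose lncRNAs went both ways. MLXIP was at 0.231 and 0.865 FPKM, its 3 lncRNAs at gaps of 445 to 13633 bp were higher in mature livers (1.62 to 1.86 FPKM there), and TCONS_00019912 at 69918 bp was at 2.57 and 0.807 FPKM.

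Genes of immune cells, cytokines and the vessel wall were higher in mature livers with their lncRNAs in 9 of 11 pairs, 2 of these 9 beside VWF. The group held 9 mRNAs, 8 of them higher, beside 54.9% of the 1480 listed mRNAs. Of the 11 lncRNAs, 10 had the direction of their mRNA, beside 72.6% of all 186 pairs. Nox2, the catalytic subunit of the phagocyte oxidase, was at 0.688 FPKM in the immature group and 8.90 FPKM in the mature group, and TCONS_00008518 at 233 bp was at 0.0482 and 1.24 FPKM. DOCK2, which drives leukocyte migration, was at 0.139 and 2.00 FPKM, and TCONS_00016444 at 95 bp was at 0.0390 and 0.768 FPKM. The chemokine receptor CCR8 was at 0.0904 and 1.44 FPKM, and TCONS_00029133 at 164 bp was at 0.0282 and 0.933 FPKM. In each pair the lncRNA was close to 0 in immature livers.

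Others of this group lay farther from their mRNA. IL16, a cytokine that attracts T cells, was at 0.132 and 2.81 FPKM, and its lncRNAs TCONS_00011067 (4355 bp) and TCONS_00011068 (6306 bp) were at 1.09 and 0.690 FPKM in mature livers and at 0.0138 and 0.0248 FPKM in immature livers. VWF, the clotting protein of vessel walls, was at 16.3 and 38.8 FPKM, with TCONS_00002290 and TCONS_00002292 listed at 0 in immature and at 0.778 and 0.901 FPKM in mature livers. The B cell kinase BLK was at 0.456 and 1.07 FPKM, and TCONS_00042407 at 44222 bp was at 0.240 and 0.903 FPKM. Of the 43 genes of immune defence and antigen presentation 18 were listed, all 18 higher. Of these BLK alone was nearest to any of the 186 lncRNAs. IL20RA, a cytokine receptor chain, was the lower one, at 7.40 and 3.14 FPKM, and TCONS_00044217 was at 1.10 and 0.178 FPKM. FGL2, made by macrophages and T cells among others, was at 1.22 and 16.4 FPKM, and its lncRNA TCONS_00005840, 62330 bp away, went the opposite way at 0.948 and 0.141 FPKM.

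None of the listed markers of T cells, macrophages and heterophils was nearest to any of the 186 lncRNAs. The summed level of the listed T cell markers (3 of 4 in the list) was 1.45 FPKM in the immature group and 45.2 FPKM in the mature group, that of macrophage markers (3 of 5) 64.3 and 331 FPKM, and that of heterophil markers (2 of 3) 6.35 and 71.2 FPKM. Each listed marker of these cells was higher in mature livers, and an unlisted marker has no value. Their part in the lncRNA values was not tested. In whole liver, a change in the number of cells of a type and a change in RNA per cell cannot be told apart. Of 8 hepatocyte markers 1 was listed, AHSG, at 2625 and 269 FPKM, and of 6 erythroid markers none was. The 1 listed endothelial marker of 4, STAB2, was at 7.72 and 3.61 FPKM, and the 1 listed stellate and fibroblast marker of 5, COL1A2, was at 52.5 and 8.82 FPKM, both lower in mature livers.

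The 6 mRNAs of cell cycle, DNA repair and nucleotides were all lower in mature livers. Of their 10 lncRNAs, the 5 within 5000 bp were lower and the 5 farther away were higher. The 5 near ones belong to CDK1 (1) and dCK (4). CDK1, the kinase that starts mitosis, was at 49.8 FPKM in the immature group and 3.76 FPKM in the mature group. TCONS_00056737, 310 bp away on chromosome 6 (8171245 to 8171875), was at 1.12 and 0.396 FPKM, a difference of -0.60 beside -3.42 for CDK1. Deoxycytidine kinase (dCK), which recycles nucleosides for DNA synthesis, was at 1.05 and 0.235 FPKM. Its 4 lncRNAs followed each other at 1229 to 4808 bp on chromosome 4 (49561696 to 49566429 in all) and were at 3.06 to 3.74 FPKM in immature and 0.467 to 1.26 FPKM in mature livers. All 4 lay above the dCK mRNA in both groups.

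The 5 farther lncRNAs of this group lay beside BARD1, MAD2L1, CMPK1 and FANCG. BARD1, the partner of BRCA1 in DNA repair, was at 1.63 and 0.262 FPKM, while TCONS_00059161 and TCONS_00059164 at 9078 bp were at 0.634 and 0.786 FPKM in immature and at 3.05 and 5.79 FPKM in mature livers. MAD2L1 of the spindle checkpoint was at 9.20 and 3.53 FPKM, and TCONS_00047088 at 36901 bp was at 0.202 and 1.55 FPKM. CMPK1, a nucleotide kinase, and FANCG, a DNA repair protein, were also lower, and their lncRNAs at 23302 and 72892 bp were higher. The list of cell cycle and DNA replication genes, which holds CDK1 and MAD2L1, had 19 of 28 genes in the mRNA table, all 19 lower in mature livers.

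Of the metabolic enzymes and related proteins, 9 mRNAs were higher and 8 lower, and 14 of their 19 lncRNAs went the same way. ELOVL6, which elongates long-chain fatty acids, was at 4.27 FPKM in the immature group and 39.0 FPKM in the mature group. TCONS_00047161, 68 bp from ELOVL6 on chromosome 4 (57599882 to 57602415), was at 1.68 and 5.35 FPKM. The differences were 2.92 for the mRNA and 1.25 for the lncRNA. Among 54 genes of lipid and lipoprotein metabolism, 24 were listed, 12 higher and 12 lower, and of these ELOVL6 alone was the nearest mRNA of an intergenic lncRNA. Lists were matched by the symbols in the table, so apoAIV, which goes by another symbol in the list, was not counted. ISCA1, an iron-sulfur assembly protein, was at 7.90 and 25.5 FPKM, and TCONS_00068149 at 449 bp was at 0.130 and 2.06 FPKM.

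Lower with their lncRNA were UPP2 and ETNPPL. UPP2, a uridine phosphorylase, was at 54.4 and 16.5 FPKM, and TCONS_00060319 at 391 bp was at 2.83 and 1.06 FPKM. ETNPPL, which degrades phosphoethanolamine, was at 182 and 42.1 FPKM, and TCONS_00046647 at 4460 bp was at 0.816 and 0.0833 FPKM. GATM, an enzyme of creatine synthesis, was at 196 and 6.85 FPKM (-4.65), and its lncRNA TCONS_00012011, 32780 bp away, was higher, at 0.519 and 1.18 FPKM. Of the 41 genes of carbohydrate and amino acid metabolism 18 were listed, 11 higher and 7 lower, and GATM alone was the nearest mRNA of an intergenic lncRNA. None of the 11 listed genes of mitochondrial respiration, 10 of them lower, was the nearest mRNA of any.

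Solute carriers and their lncRNAs shared a direction in all 9 pairs, which held 5 mRNAs, beside 72.6% of all 186 pairs. The amino acid transporter SLC38A2 was at 26.2 and 56.8 FPKM, and TCONS_00000783 at 110 bp was at 0.943 and 2.06 FPKM. The taurine transporter SLC6A6 was at 84.4 and 41.7 FPKM, and TCONS_00014624 at 103 bp was at 1.97 and 0.0892 FPKM. The glutamate transporter SLC1A1 was lower as well, at 3.36 and 0.311 FPKM, with TCONS_00067856 at 0.687 and 0.00968 FPKM. SLC9A7, a sodium-proton exchanger, was at 2.52 and 5.59 FPKM, and its 3 lncRNAs, at 4973 to 22707 bp, were at 0.937 FPKM or above in mature livers and higher there than in immature livers. SLC6A2, the norepinephrine transporter, lay at 0.103 and 0.755 FPKM with 3 lncRNAs, 1 of them 2724 bp away and the others 95577 bp away, all higher.

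Among hormones, growth factors, receptors and their signaling proteins, 7 mRNAs were higher and 7 lower, and 13 of 19 lncRNAs had the direction of their mRNA. RGS2, which switches off G protein signals, was at 3.30 and 41 FPKM, and TCONS_00061645 at 4133 bp was at 0.0328 and 0.830 FPKM. SOCS2, which limits growth hormone signaling, was at 2.12 and 6.69 FPKM, and TCONS_00006500 at 504 bp was at 1.05 and 2.20 FPKM. TRHDE, the enzyme that degrades thyrotropin-releasing hormone, had the smallest gap above 0, 33 bp. It was at 7.26 and 3.44 FPKM, and TCONS_00006352 was at 1.26 and 0.487 FPKM. Follistatin (FST), which binds activins, was at 10.2 and 31.9 FPKM with TCONS_00067577 at 0.219 and 0.729 FPKM, 90967 bp away. Together with INHBA, it gave 3 lncRNAs with the direction of their mRNA in the list of Notch, Wnt, Hedgehog and activin signaling, of which 5 of 31 genes were listed, 3 higher and 2 lower.

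**Figure D3:**
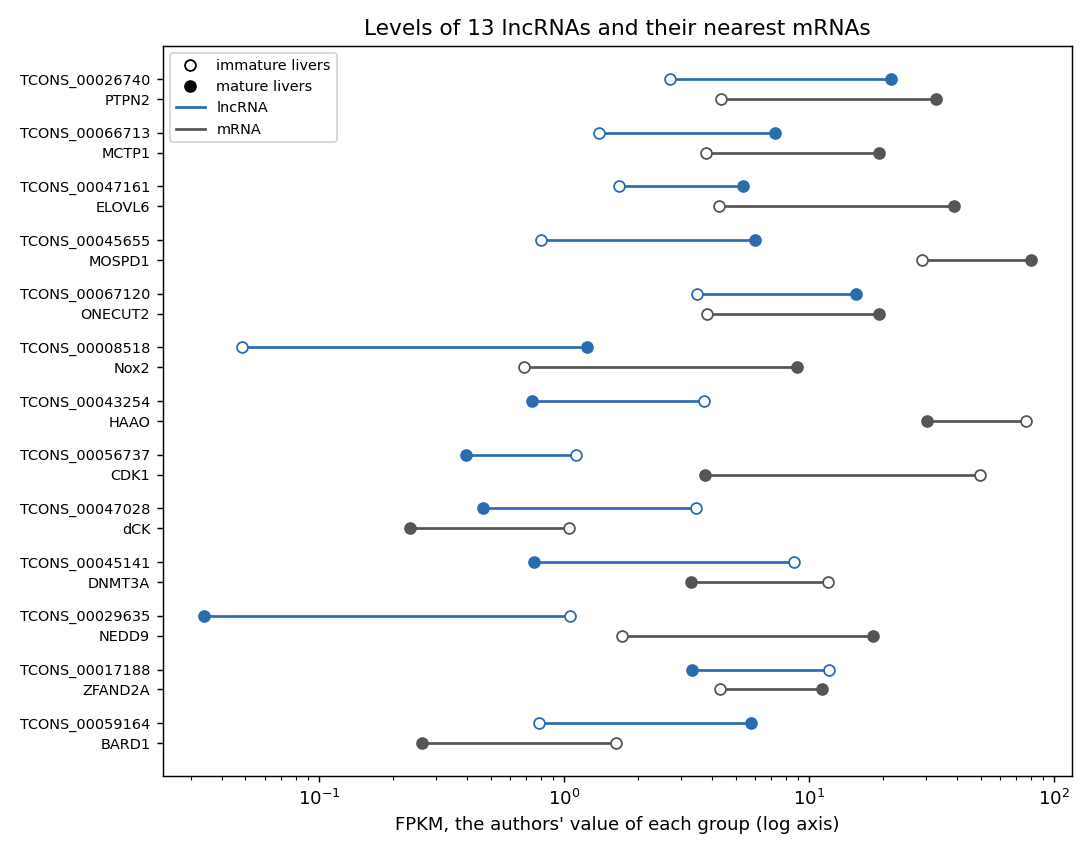
Levels of 13 lncRNAs (blue) and of the nearest mRNA under each (grey) in FPKM on a log axis, with the authors' value for immature livers as open and for mature livers as filled circles. In each of the upper 10 pairs both transcripts move in the same direction, and in the lower 3 pairs (NEDD9, ZFAND2A and BARD1) lncRNA and mRNA move in opposite directions.

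Proteins of membrane traffic, cytoskeleton, adhesion and matrix were the largest group, with 22 mRNAs and 46 lncRNAs, of which 32 went with their mRNA. SNX9, a sorting nexin of endocytosis, was at 9.82 and 25.1 FPKM, and 3 lncRNAs in 1 region 180 bp from it were at 0.135 to 0.368 FPKM in immature and 0.775 to 1.39 FPKM in mature livers. CD151, a tetraspanin that binds integrins, was at 12.2 and 33.2 FPKM. Its 6 lncRNAs lay in 6 regions on the left at 13283 to 90610 bp on chromosome 5, and all 6 were higher in mature livers, with differences of 0.37 to 0.94 against 1.37 for CD151. TBC1D19, named for a domain that acts on Rab GTPases, was at 0.331 and 0.872 FPKM. Its 3 lncRNAs at 28852 to 32312 bp reached 1.93 to 3.80 FPKM in mature livers, above the mRNA, from 0.185 FPKM or less in immature livers.

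Some lncRNAs of the same group opposed their mRNA. RTN4, which shapes the endoplasmic reticulum, was at 0.855 and 3.14 FPKM, and its 3 lncRNAs at 326 to 10336 bp were lower in mature livers, TCONS_00042590 at 326 bp from 2.90 to 1.20 FPKM. PDLIM1, an adaptor of the actin cytoskeleton, was at 12.1 and 24.6 FPKM, and its 4 lncRNAs at 4303 to 24331 bp were lower, at 1.51 to 5.08 FPKM in immature and 0.514 to 1.88 FPKM in mature livers. NEDD9, a scaffold of focal adhesions, was at 1.72 and 18.2 FPKM. Its lncRNA TCONS_00029635 at 2632 bp was at 1.06 and 0.0339 FPKM. Of these 8 opposite pairs, 5 had a gap of at most 5000 bp.

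Around 16 mRNAs there were 3 or more lncRNAs, 65 of the 186 in all. For 14 of the 16 all lncRNAs had 1 direction, and HMGI-C and MLXIP were the exceptions. MOSPD1, a membrane protein of the endoplasmic reticulum, was at 28.8 and 80.4 FPKM with 4 lncRNAs in 1 region 69 bp away on chromosome 4 (4093924 to 4106492). They were at 0.807 to 1.90 FPKM in immature and at 4.77 to 7.12 FPKM in mature livers. LONRF1, a RING finger protein, was at 0.437 and 1.66 FPKM, and its 3 lncRNAs at 445 to 3733 bp reached 0.790 to 1.63 FPKM in mature livers. The opposite direction was found in all 5 lncRNAs nearest to the unnamed ENSGALG00000026769 (3.02 and 8.16 FPKM), at 80617 to 84043 bp. They were at 0.761 to 1.87 FPKM in immature and at 0.0330 to 0.175 FPKM in mature livers. SPSB1, an adaptor of a ubiquitin ligase, was at 1.61 and 5.43 FPKM, and its 3 lncRNAs at 1220 to 21744 bp were lower in mature livers. Many of these lncRNAs lie in 1 region or side by side, and whether they are separate transcripts was not tested, so their number is not a number of independent genes.

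**Figure D4:**
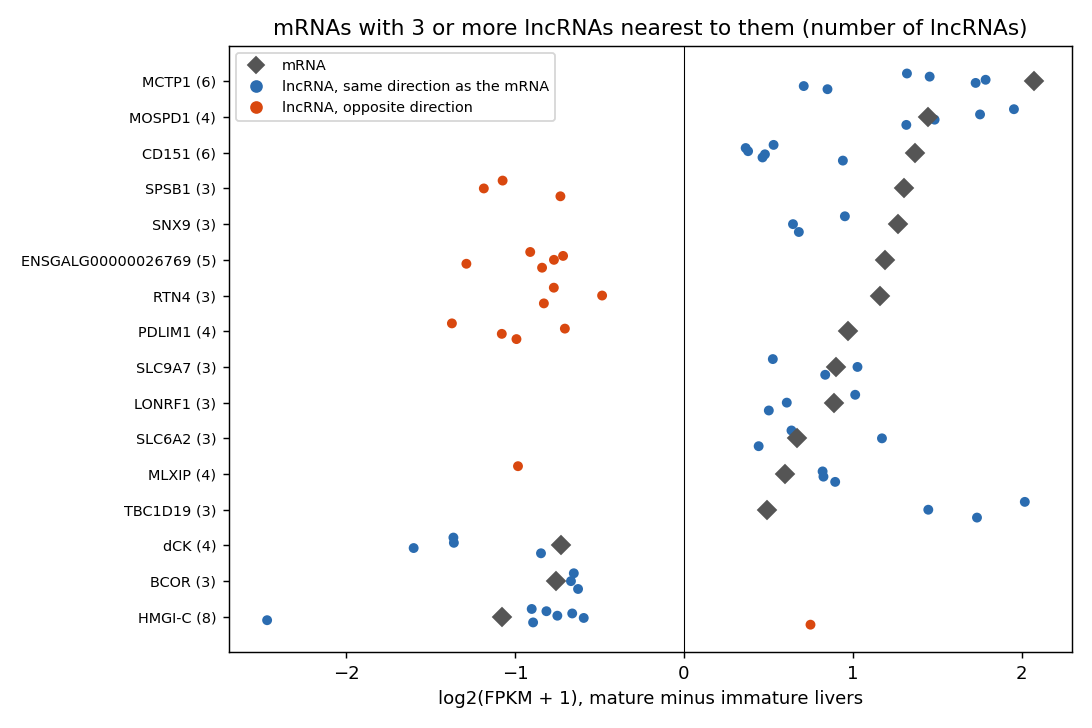
Difference, mature minus immature livers on log2(FPKM + 1) (x axis), of the 16 mRNAs nearest to 3 or more lncRNAs (grey diamonds, 1 per row) and of those lncRNAs (circles, blue for the direction of the mRNA and orange for the opposite). In 14 rows the circles lie on 1 side of 0, and in the rows of RTN4, PDLIM1, SPSB1 and ENSGALG00000026769 all of them lie opposite to the mRNA.

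Over all mRNAs, 83 were nearest to 1 lncRNA and 35 to 2 or more. All lncRNAs had the direction of the mRNA for 82 of the 118, 25 of these with 2 or more lncRNAs. For 34 mRNAs all were opposite, and for 2 they were mixed.

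Opposite pairs with the largest differences on both sides included several named genes. ZFAND2A, a zinc finger protein of the stress response, was at 4.31 FPKM in the immature group and 11.3 FPKM in the mature group, while TCONS_00017188 at 32867 bp was at 12.0 and 3.31 FPKM. EREG, a growth factor of the EGF family, was at 0.285 and 3.17 FPKM, and TCONS_00046822 at 81849 bp was at 2.78 and 0.548 FPKM. The small nucleolar RNA SNORA23, listed in the mRNA table, was at 5784 and 12582 FPKM, and TCONS_00053043 at 41507 bp was at 10.2 and 2.14 FPKM. In each of these pairs the lncRNA was the lower one in mature livers.

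Other opposite pairs had a gap of at most 5000 bp between their regions. FKBP51, a cochaperone of the glucocorticoid receptor, was at 93.1 and 31.2 FPKM, and TCONS_00036740 at 1797 bp was at 0.483 and 1.00 FPKM. Amnionless (AMN), which with cubilin takes up proteins at the cell surface, was at 29.1 and 4.76 FPKM, and TCONS_00052346 at 4713 bp was at 0.297 and 0.678 FPKM. The apolipoprotein apoAIV was at 723 and 2544 FPKM, and TCONS_00036043 at 4918 bp was at 6.25 and 3.10 FPKM. The regions of TCONS_00052346 and TCONS_00036043 span 68616 and 99736 bp, so either transcript may lie farther from its mRNA than the gap.

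With a pseudocount of 1 the largest difference of the 186 was that of TCONS_00033148 on chromosome 21 (2045298 to 2141828), at 0.876 FPKM in the immature group and 56.3 FPKM in the mature group, or 4.93 on the log2 scale. TCONS_00033152 in the same region was at 1.01 and 54.0 FPKM (4.77). A pair of mRNAs lay at the same gap of 5769 bp, both higher but by less. They were MMP23B, a membrane metalloproteinase, at 0.716 and 2.00 FPKM and the kinase CDC2L1 at 3.67 and 8.75 FPKM. The lncRNAs thus lay between the levels of the 2 mRNAs in immature livers and above both in mature livers. With a pseudocount of 0.1 the largest was that of TCONS_00044582 (5.94 against 5.85 for TCONS_00033148). TCONS_00044582 was listed at 0 in immature and 6.05 FPKM in mature livers. It lay 86 bp from both BORCS6, which positions lysosomes, at 7.97 and 30.4 FPKM, and the transcription coregulator PNRC1, at 85.4 and 174 FPKM.

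Other high lncRNAs were TCONS_00013761 and TCONS_00039083. TCONS_00013761 on chromosome 11 (7243949 to 7251014) was at 21.7 and 66.4 FPKM, above the unnamed ENSGALG00000021225 at 1.84 and 10.3 FPKM, 24764 bp away. TCONS_00039083 on chromosome 28 was at 17.5 and 7.22 FPKM, and the tight junction protein TJP3, 94385 bp away, was at 1.11 and 0.373 FPKM. Low in mature livers was TCONS_00038307, at 2.77 and 0.171 FPKM, 56334 bp from prohibitin (PHB) at 119 and 53.3 FPKM. The unnamed mRNA ENSGALG00000002493 was at 43.0 and 1320 FPKM. Its lncRNA TCONS_00055258 at 821 bp was at 0.299 and 1.27 FPKM, a difference of 0.80 beside 4.91 for the mRNA.

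Just inside the limit of 100000 bp were TCONS_00012686 and TCONS_00012687 at 95577 bp from SLC6A2, at 0.375 and 0.502 FPKM in immature and 2.10 and 1.34 FPKM in mature livers, both in the direction of SLC6A2. Just outside were TCONS_00054744, 102510 bp from AMN and opposite to it, at 0.125 and 0.793 FPKM, and TCONS_00001897, 102811 bp from the amino acid transaminase BCAT1 and in its direction, at 0.292 and 0.773 FPKM.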

How the data were processed

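RNA-seq of 6 rooster liver libraries, 3 immature and 3 mature, was deposited as 1 table of mRNAs and 1 of lncRNAs. The authors' deposited FPKM (unit: FPKM, normalized to transcript length and library size by the authors) give 1 value per group. The tables also hold the authors' log2 fold changes, p-values and directions, which were not used. The submitters' processing notes name FastQC, Bowtie2 2.0.6, TopHat, Cufflinks, Cuffdiff and DESeq without their roles, and the study's methods describe StringTie, Ballgown and DESeq for the published tables. Per the same methods the reads were mapped to Galgal5; whether the deposited coordinates are on that build is not stated in the tables. The number of value columns that belong to no sample of the series was 0.

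Gaps, directions and differences of log2(FPKM + 1) were computed with Python 3.11.15, pandas 2.3.3, numpy 2.4.6 and scipy 1.17.1, and figures with matplotlib 3.10.9. The gap and run routines were tested on simulated data. The planned limma test needs values per library and could not be run, so group values are described with no test. Members, gene lists and markers were chosen with earlier results of these data known. Named pairs were the largest and most negative lncRNAs and mRNAs, the smallest gaps and shared regions, opposite pairs, the highest levels, mRNAs with 3 or more lncRNAs, list members and pairs at the distance limit. Other pairs named, and the sorting of mRNAs by role, were chosen after their values were seen. Tied nearest mRNAs (3 lncRNAs) were counted by the first listed. Alternatives were a pseudocount of 0.1 or none, a minimum mean of 1 FPKM, gap limits of 10000 and 50000 bp, gaps of at least 5000 bp, all pairs, 1 pair per mRNA, mRNAs with a symbol, and midpoints. Sequences of the transcripts were not analysed here.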

Additional observations from a re-analysis of the deposited data

How the results depend on the processing

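The share of pairs with the same direction depended on the gap. It was 80.8% of 146 pairs at gaps of at most 50000 bp, 86.4% of 103 pairs at most 10000 bp, and 60% of 100 pairs at 5000 bp or more. With a minimum mean of 1 FPKM for both the lncRNA and the mRNA, it was 69.1% of 55 pairs. It was 71.4% of all 248 pairs and 70.3% with 1 pair per mRNA, that of the nearest lncRNA. With mRNAs with a symbol it was 75%, and with distances between midpoints 73.2%. Chosen after seeing the data, it was 70% without identical regions and 72.0% with 1 pair per lncRNA region.

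Differences depended on the pseudocount, as most levels were under 1 FPKM. With 0.1 FPKM in place of 1, 91 were higher and 83 lower by more than 1, with a median of 0.93. With no pseudocount, in the 174 with no value of 0, these were 92, 82 and 1.05, so all 174 passed 1. The median was 0.65 in the 74 with a mean of at least 1 FPKM. At gaps of at most 10000 bp, 26 of the 103 were higher and 16 lower by more than 1, beside 36 and 28 of the 186. The sign of a difference cannot change with the pseudocount. Among the 137 named differences ranks moved with 0.1 FPKM: TCONS_00031159 (-4.82) then lay below TCONS_00000887 (-3.86). Leaving out libraries was not run, since the tables hold 1 value per group. No paired analysis was possible because the deposited tables hold 1 value per group and the groups are different birds. The group values also leave the spread between birds unknown.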
